A study of Capra hircus with 6 samples.

Results

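Microglia identity and state genes were followed in the hypothalamus of female Anhuai goats before and at puberty. The set held 9 of the 20225 genes of the mRNA table: AIF1, CSF1R, CX3CR1, P2RY12, P2RY13, TMEM119, TREM2, TYROBP and CD68. They were taken by their NCBI goat symbols, and the values of all transcripts of a gene were added up in each library. All 9 were found, and all 9 passed the minimum level for a test. Hypothalamus was taken from 3 pubertal goats of 4.5 to 5.0 months, in the late follicular phase, and from 3 prepubertal goats of 2.5 to 3.0 months, kept on the same farm. Puberty was judged by estrus, as detected by male goats, and by the look of the vulva, and stage and age cannot be told apart. Each goat gave 1 strand-specific library from RNA depleted of ribosomal RNA. Values are FPKM, fragments scaled by transcript length and mapped fragments, so levels of different genes can be set side by side. The tables used here hold no read counts, and how many reads lie behind each value was not worked out.

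Microglia are the resident macrophages of the brain. Their survival depends on the receptor CSF1R and its ligands CSF1 and IL34, and they sense neurons through CX3CR1, which binds the neuronal ligand CX3CL1, and nucleotides through the ADP receptors P2RY12 and P2RY13. These receptors and the surface protein TMEM119 mark the surveying, or homeostatic, state. TREM2 senses lipids and passes its signal through the adaptor TYROBP to the kinase SYK, and CD68 is a glycoprotein of lysosomes. These genes are known to go up when microglia turn phagocytic. AIF1 encodes IBA1, an actin-binding protein found in microglia of any state. CX3CR1, P2RY12, P2RY13, TMEM119 and CSF1R were therefore grouped as homeostatic, TREM2, TYROBP and CD68 as activation genes, and AIF1 was kept apart. No sequence of these genes was in the files used here.

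Over the 14081 genes with a mean of at least 1 FPKM, the libraries were alike in scale, with a median log2(FPKM + 1) between 3.80 and 3.83. Centring on the median over all genes tested still moved the stage differences, as given below. Of 12 hypothalamic peptide genes, 9 were in the table. PMCH, the melanin-concentrating hormone gene, lay between 673 and 2173 FPKM, while AVP, the vasopressin gene that the hypothalamus expresses, was listed at 0 in all 6 libraries, so a 0 was not read as absence. Pubertal replicate 3 stood apart in POMC, with 429 FPKM against 22.9 to 85.1 in the other libraries. It also did in the smooth muscle gene ACTA2, with 70.7 FPKM against 11.6 to 17.97. Other libraries stood apart in other ways. The myelin gene MBP was listed at 0 in prepubertal replicate 1 and lay between 425 and 3333 FPKM elsewhere. Leaving out pubertal replicate 1 moved the unadjusted p-values of limma most, as given below. Several results are also given without pubertal replicate 3.

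Transcripts of all 9 genes were found in both stages, and their levels hardly separated pubertal from prepubertal goats. The means of CD68 and P2RY13, 2.99 and 6.63 FPKM, lay under the median of 9.78 FPKM over all genes tested. The sum of the 9 genes was 418, 365 and 334 FPKM in pubertal replicates 1, 2 and 3. In prepubertal replicates 1, 2 and 3 it was 360, 401 and 355 FPKM. The means were 372 ± 42.6 and 372 ± 25.6 FPKM (SD, n = 3 each). In bulk tissue, fewer microglia and less RNA per microglial cell cannot be told apart. In the limma comparison, with p-values adjusted over all genes tested and a threshold of 0.05, the test was passed by 0 of the 9 genes and by 0 of 16397 genes in all (0%). Unadjusted p-values were under 0.05 for 0 of the 9 genes, against 846 of 16397 (5.16%). The ranges of the stages overlapped for 9 of 9 genes, and did not overlap for 1598 of all genes tested (9.75%). The median log2 difference, pubertal minus prepubertal on the log2(FPKM + 1) scale, was 0.02 over the 9 genes and -0.0007 over all genes. For 5 of the 9 it was above 0 and for 4 below, with a range from -0.21 in TREM2 to 0.15 in P2RY13.

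**Figure D1:**
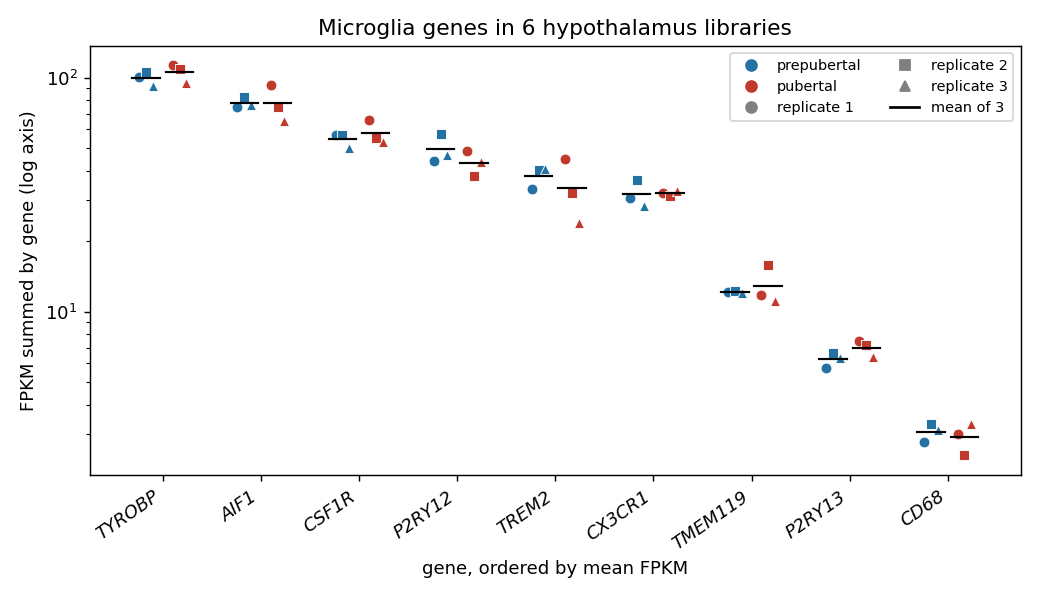
FPKM summed by gene (log axis) of the 9 microglia genes in each library, with prepubertal goats in blue, pubertal goats in red, marker shapes for the replicate number and black bars for the mean of 3. TYROBP lies highest at 91.9 to 113 FPKM and CD68 lowest at 2.43 to 3.32 FPKM, and the stages overlap for all 9 genes.

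The genes differed among themselves far more than between goats. TYROBP had the highest mean over the 6 libraries, 102 FPKM, followed by AIF1 with 77.7, CSF1R with 56.2, P2RY12 with 46.3, TREM2 with 35.8, CX3CR1 with 31.9, TMEM119 with 12.5, P2RY13 with 6.63 and CD68 with 2.99 FPKM. The mean of TYROBP was 34.3 times that of CD68. This order was kept between neighbours in 6 of 6 libraries, except that CSF1R lay above P2RY12 and TREM2 above CX3CR1 in 5 of 6. TYROBP stood at the percentile 94.2 of the levels of all genes tested and CD68 at 26.2, and P2RY13, next above CD68, had 2.22 times its mean. The coefficient of variation over the 6 libraries ran from 7.83% in TYROBP to 20.9% in TREM2, with a median of 11.5%. The median over the 14081 genes with a mean of at least 1 FPKM was 11.4%.

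Among the homeostatic genes, CSF1R (NCBI gene 100861303), the receptor for CSF1 and IL34, was at 65.5, 55.0 and 53.0 FPKM in pubertal and 56.8, 56.7 and 49.99 FPKM in prepubertal replicates 1, 2 and 3. Its highest value was in pubertal replicate 1 and its lowest in prepubertal replicate 3, with the rest close together. The means were 57.8 ± 6.76 and 54.5 ± 3.91 FPKM (SD, n = 3 each), a log2 difference of 0.08 (standard error 0.11, 95% interval -0.16 to 0.33, adjusted p = 0.969 from limma). CSF1R overlaps HMGXB3 in the RefSeq gene table, which had 9.55 to 11.8 FPKM.

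CX3CR1 (NCBI gene 102187274), the receptor for the neuronal ligand CX3CL1, was at 32.0, 31.3 and 32.6 FPKM in pubertal and 30.7, 36.4 and 28.2 FPKM in prepubertal replicates 1, 2 and 3. The pubertal goats lay inside the range of the prepubertal goats. The log2 difference was 0.02 (standard error 0.11, 95% interval -0.23 to 0.26, adjusted p = 0.996 from limma).

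The ADP receptors P2RY12 (NCBI gene 102191739) and P2RY13 (NCBI gene 102191278) are neighbours in the genome, and both overlap MED12L in the RefSeq gene table, which had 4.32 to 5.12 FPKM. P2RY12 was at 48.5, 37.8 and 43.4 FPKM in pubertal and 43.9, 57.2 and 46.8 FPKM in prepubertal replicates 1, 2 and 3. Prepubertal replicate 2 was the highest and pubertal replicate 2 the lowest, and the others overlapped. The log2 difference of P2RY12 was -0.18 (standard error 0.13, 95% interval -0.48 to 0.12, adjusted p = 0.962 from limma). P2RY13 was at 7.47, 7.19 and 6.39 FPKM in pubertal and 5.74, 6.64 and 6.33 FPKM in prepubertal replicates 1, 2 and 3. Pubertal replicate 3 fell within the prepubertal range, while the other pubertal goats lay above it. The log2 difference of P2RY13 was 0.15 (standard error 0.11, 95% interval -0.11 to 0.40, adjusted p = 0.962 from limma). P2RY12 and P2RY13 kept the sign of their difference with each library left out in turn, from -0.27 to -0.07 and from 0.10 to 0.20.

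TMEM119 (NCBI gene 102183624), a membrane protein used to tell microglia from blood-borne macrophages, was at 11.8, 15.8 and 11.1 FPKM in pubertal and 12.1, 12.2 and 11.98 FPKM in prepubertal replicates 1, 2 and 3. The prepubertal goats differed by little, and pubertal replicate 2 alone lay above them. The log2 difference was 0.07 (standard error 0.13, 95% interval -0.24 to 0.38, adjusted p = 0.978 from limma), and without pubertal replicate 2 it was -0.08.

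Of the activation genes, TYROBP (NCBI gene 102175151), the adaptor of TREM2, was at 113, 108 and 95.2 FPKM in pubertal and 100.3, 106 and 91.9 FPKM in prepubertal replicates 1, 2 and 3. In each stage replicate 3 was the lowest, and the stages overlapped. The log2 difference was 0.08 (standard error 0.10, 95% interval -0.14 to 0.31, adjusted p = 0.969 from limma), and it ran from 0.028 to 0.15 with each library left out in turn.

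TREM2 (NCBI gene 102189077), the lipid receptor, varied most. It was at 44.7, 32.2 and 23.9 FPKM in pubertal and 33.4, 40.2 and 40.5 FPKM in prepubertal replicates 1, 2 and 3, so the pubertal goats held both the highest and the lowest value, 1.87 times apart. The means were 33.6 ± 10.5 and 38.0 ± 4.01 FPKM (SD, n = 3 each). The log2 difference was -0.21 (standard error 0.20, 95% interval -0.68 to 0.25, adjusted p = 0.962 from limma). It was -0.43 without pubertal replicate 1, where TREM2 was the 1 gene of the 9 with an unadjusted p-value under 0.05 (adjusted p = 0.310 from limma), and 0.0024 without pubertal replicate 3. Without pubertal replicate 1, 2223 of 16416 genes (13.5%) had an unadjusted p-value under 0.05.

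CD68 (NCBI gene 102189793), the lysosomal glycoprotein, was at 2.98, 2.43 and 3.32 FPKM in pubertal and 2.77, 3.31 and 3.11 FPKM in prepubertal replicates 1, 2 and 3. Pubertal goats held the lowest and the highest value. The log2 difference was -0.06 (standard error 0.13, 95% interval -0.36 to 0.24, adjusted p = 0.979 from limma), and at this level the added 1 FPKM makes a change look smaller. Without pubertal replicate 2 it was 0.03.

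AIF1 (NCBI gene 100860979), which encodes IBA1, was at 92.5, 75.2 and 65.0 FPKM in pubertal and 74.5, 82.7 and 76.0 FPKM in prepubertal replicates 1, 2 and 3. Pubertal goats again held both extremes, in replicates 1 and 3. The means were 77.6 ± 13.9 and 77.8 ± 4.37 FPKM (SD, n = 3 each), a log2 difference of -0.02 (standard error 0.13, 95% interval -0.32 to 0.28, adjusted p = 0.997 from limma).

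**Figure D2:**
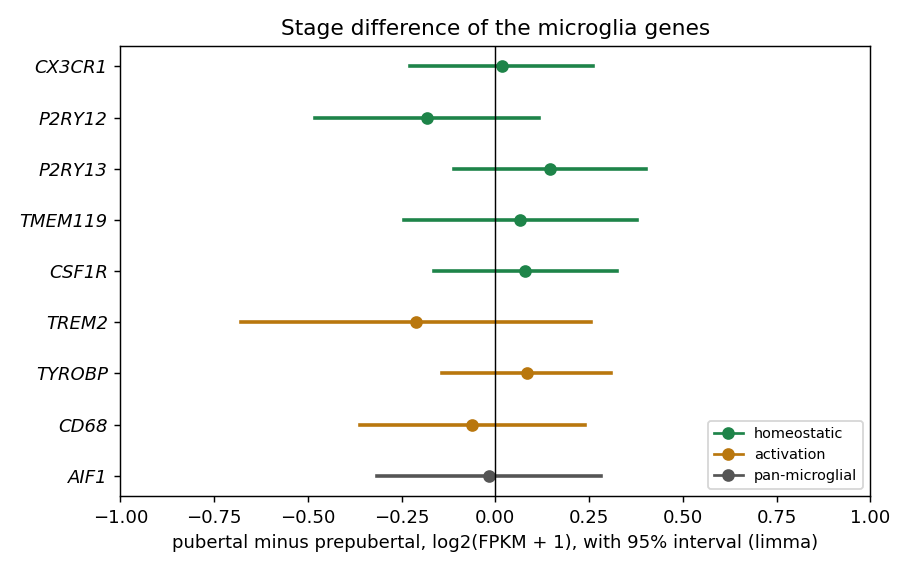
Log2 difference between pubertal and prepubertal goats for each of the 9 microglia genes, with the 95% interval from limma as a line, coloured by class. All 9 intervals hold 0 and lie inside -1 to 1, and the widest is that of TREM2, from -0.68 to 0.25.

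The 95% intervals of all 9 genes held 0, and 9 of 9 lay within 1 on the log2 scale. The lowest bound, that of TREM2, was a 0.625-fold level and the highest, that of P2RY13, a 1.32-fold level in pubertal goats, on the scale of FPKM + 1. An exact permutation test of 3 against 3 cannot give a p-value under 0.1. The signs were not firm for 6 genes. With 1 library left out, CX3CR1, TMEM119, CSF1R, TREM2, CD68 and AIF1 crossed 0.

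Each gene sum rested wholly or mainly on 1 transcript. CSF1R, CX3CR1, P2RY13, TMEM119, TREM2, TYROBP and CD68 had a single transcript in the table. The transcript XM_005696600.2 gave 93.4% of the FPKM of AIF1, between 91.0% and 95.9% by library, and XM_005696601.2, 1 nt longer, gave 6.65%. Such similar transcripts share most reads, so their split is uncertain. For P2RY12, XM_005675443.2 gave 94.7%, XM_013965747.1 gave 3.15% and XM_005675444.2 gave 2.19%. XM_005675444.2 was listed at 0 in pubertal replicate 3 and was at 0.497 to 1.92 FPKM elsewhere. None of the 12 transcripts passed an adjusted p-value of 0.05 in limma (0 of 12, where 0% of the 23821 mRNA transcripts tested did), and their stages overlapped in 12 of 12, while 9.56% of all transcripts tested had no overlap.

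Activation and homeostatic genes were set against each other within each library. The summed FPKM of TREM2, TYROBP and CD68 over that of the 5 homeostatic genes was 0.970, 0.972 and 0.836 in pubertal and 0.915, 0.883 and 0.946 in prepubertal replicates 1, 2 and 3. Pubertal goats held the highest and lowest ratio. The mean was 0.926 ± 0.0779 in pubertal and 0.915 ± 0.0313 in prepubertal goats (SD, n = 3 each), a difference well within the spread of the goats. Homeostatic sums were 153 ± 10.7 and 154 ± 13.6 FPKM, and activation sums 142 ± 18.97 and 140 ± 7.82 FPKM (SD, n = 3 each). TYROBP made up most of the activation sum. When the genes of a class were given equal weight as a mean of log2(FPKM + 1), the difference of activation minus homeostatic genes between the stages went from 0.02 on the log2 scale of the ratio to -0.09. No test was run on these scores, since the members were chosen.

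**Figure D3:**
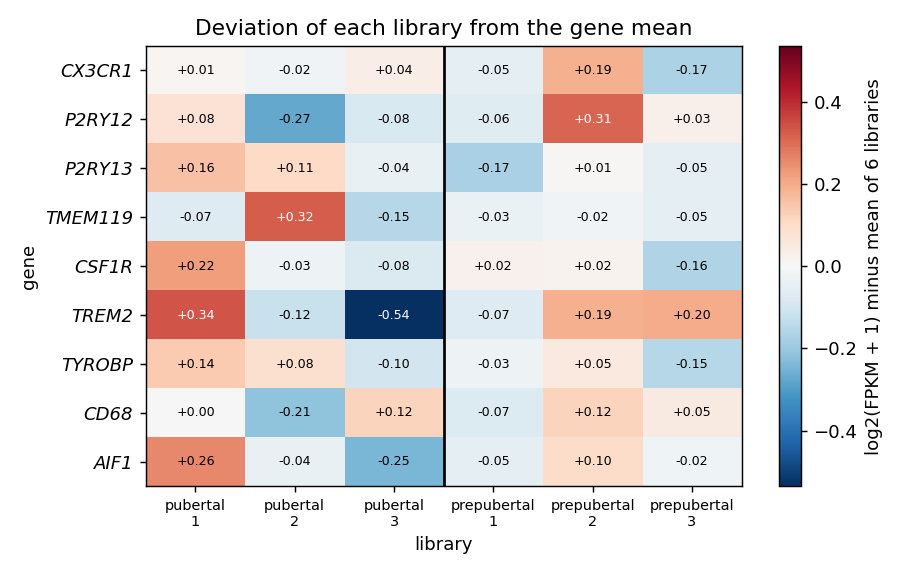
Deviation of each library from the mean of the 6 libraries, in log2(FPKM + 1), for each microglia gene, with pubertal libraries left and prepubertal libraries right of the line. The deepest cell is TREM2 in pubertal replicate 3, at -0.54, and neither stage is uniformly red or blue.

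Libraries of the same stage differed from each other. With 1 library per goat, differences between animals and between libraries cannot be told apart. In prepubertal replicate 2, 8 of the 9 genes lay above their mean over the 6 libraries, and in pubertal replicate 1, 7 of 9 did. In prepubertal replicate 1 it was 1 of 9, in pubertal replicate 3 it was 2 of 9, and in the remaining libraries 3 of 9. Among the 36 pairs of genes, the Pearson correlation r of log2(FPKM + 1), taken across 6 libraries, had a median of 0.35 and was above 0 in 25 pairs. The highest were TREM2 with AIF1, at 0.91, and CSF1R with TYROBP, at 0.85, and the lowest was TMEM119 with CD68, at -0.85. The 10 pairs of homeostatic genes had a median r of 0.24 and the 15 pairs of a homeostatic and an activation gene 0.36. These values share 6 libraries and their scaling and are descriptions.

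The 5 genes most like the mean of the 9, among 14072 other genes with a mean of at least 1 FPKM, were PAPD5, a noncanonical poly(A) polymerase (r = 0.998 over 6 libraries), PYROXD1 (0.988), the zinc finger factor gene THAP1 (0.983), CTNNB1, which encodes beta-catenin (0.982), and BRI3BP (0.980). In all, 217 genes (1.54%) had an r above 0.9. Of 16 other core microglia genes, 1 had an r above 0.9, the lysosomal membrane gene LAPTM5 at 0.93. The purinergic-like receptor gene GPR34 was at 0.89, the protease gene CTSS at 0.84 and BIN2 at 0.82, but SALL1 was at -0.16 and MERTK at -0.32. The median over the 16 was 0.19, against 0.05 over all genes compared. High values were not particular to microglia genes. Named after their values were seen, the blood leukocyte gene S100A9 was at 0.93 and S100A8, of the same list, at 0.32. The neuron gene GAD2 was at 0.86 and the neuron gene SLC17A6 at -0.17.

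The wider pathway was described with 59 genes in 4 lists, of which 55 were found and tested. The lists were chosen with earlier results of these data known. The shares of all genes are therefore no neutral yardstick for them, and the counts are descriptions. After adjustment 0 of the 55 passed the test in limma. Unadjusted p-values under 0.05 were seen for 13 of 55 with higher values in pubertal goats and for 0 with lower values, where 3.51% of all genes tested were higher and 1.65% lower. The stages did not overlap in 14 with pubertal goats higher, against 5.91% of all genes, and in 1 with pubertal goats lower (3.84% of all genes). The median log2 difference was 0.16, against -0.0007 over all genes. The count of 13 was 8 without pubertal replicate 3, 7 without prepubertal replicate 1 and 8 without prepubertal replicate 3. Genes with pubertal goats lower at that threshold appeared in 3 of the alternatives, 2 without pubertal replicate 1 (BIN2 and CD47), 2 with the most abundant transcript only (BIN2 and TLR7, with 9 higher) and 1 without prepubertal replicate 1 (FABP5). The count of 13 was 10 with each library centred on its median. Centring turned the split of all genes at that threshold from 575 higher and 271 lower to 454 higher and 407 lower. It moved the median log2 difference over all genes from -0.0007 to -0.037.

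**Figure D4:**
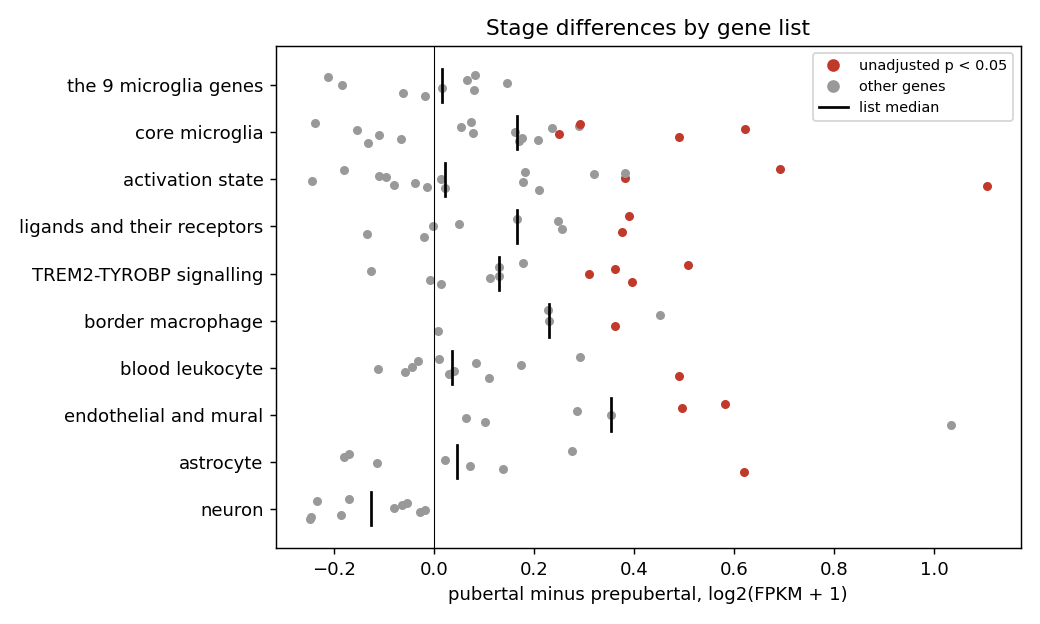
Log2 difference between pubertal and prepubertal goats for each tested gene of 10 lists, with genes at an unadjusted p-value under 0.05 in red and the list median as a black bar. The 9 microglia genes centre on 0.02, the endothelial and mural genes on 0.35 and the neuron genes on -0.13.

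Of the ligands and their receptors, 2 of 9 tested genes were at an unadjusted p-value under 0.05, both higher in pubertal goats. CSF1, a ligand of CSF1R, was at 5.14, 5.37 and 6.67 FPKM in pubertal and 3.54, 4.31 and 4.69 FPKM in prepubertal replicates 1, 2 and 3. All 3 pubertal goats lay above the prepubertal goats, with a log2 difference of 0.38 (standard error 0.14, adjusted p = 0.883 from limma). IL34, the other ligand of the same receptor, was at 13.3, 11.4 and 9.46 FPKM against 13.5, 12.3 and 8.77 FPKM, with a log2 difference of -0.0019. CX3CL1, the ligand of CX3CR1, was at 27.4, 25.95 and 46.2 FPKM in pubertal and 22.7, 26.4 and 31.7 FPKM in prepubertal replicates 1, 2 and 3. Its log2 difference of 0.26 rested on pubertal replicate 3, without which it was -0.00065. TGFB1, a cytokine that maintains the homeostatic state, had 2.85 ± 0.601 and 2.22 ± 0.206 FPKM (SD, n = 3 each, adjusted p = 0.962 from limma). The other gene was TGFBR2, its receptor, named after its values were seen, with 15.5 ± 3.29 and 11.4 ± 0.861 FPKM (SD, n = 3 each, adjusted p = 0.893 from limma). Its log2 difference was 0.39, and 0.23 without pubertal replicate 3.

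Among 11 genes of signalling downstream of TREM2 and TYROBP, 4 were at an unadjusted p-value under 0.05, all higher in pubertal goats and without overlap. SYK, the kinase that docks on TYROBP, was at 14.6, 21.0 and 15.5 FPKM in pubertal and 9.79, 12.3 and 12.7 FPKM in prepubertal replicates 1, 2 and 3. Every pubertal value lay above every prepubertal value, and the log2 difference was 0.51 (standard error 0.16, adjusted p = 0.808 from limma), from 0.36 to 0.60 with each library left out. With the most abundant SYK transcript alone it was 1.91, and the split of reads among the transcripts of this gene is uncertain. PLCG2, the phospholipase below SYK, was at 1.69, 1.87 and 2.20 FPKM against 1.03, 1.36 and 1.44 FPKM, a log2 difference of 0.36 (standard error 0.13, adjusted p = 0.880 from limma). With a pseudocount of 0.1 the PLCG2 difference was 0.56. The others, named after their values were seen, were the kinase gene LYN, with 5.36 ± 0.440 and 4.15 ± 0.629 FPKM, and the adaptor gene CARD9, with 6.82 ± 0.716 and 4.98 ± 0.939 FPKM (SD, n = 3 each). PIK3CD, a PI3-kinase subunit also named after its values were seen, was the 1 gene without overlap whose pubertal goats were lower, at 14.7 ± 0.368 against 16.2 ± 1.26 FPKM (SD, n = 3 each). TREM2 and TYROBP themselves overlapped between the stages, as given above. SYK, PLCG2 and LYN are also used by other blood and vascular cells.

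Of 18 tested genes in the core microglia list, 4 were at an unadjusted p-value under 0.05, again with pubertal goats higher. ITGAM, the CD11b integrin subunit, was at 27.9, 24.3 and 24.9 FPKM in pubertal and 22.8, 21.4 and 20.2 FPKM in prepubertal replicates 1, 2 and 3. The stages did not overlap, and the log2 difference was 0.25 (standard error 0.09, adjusted p = 0.893 from limma). The others, named after their values were seen, were OLFML3, a secreted matrix protein gene, with 40.1 ± 11.9 and 25.3 ± 3.93 FPKM, SELPLG, the P-selectin ligand, with 5.26 ± 0.306 and 4.11 ± 0.248 FPKM, and HPGDS, a prostaglandin synthase, with 0.603 ± 0.215 and 0.136 ± 0.0554 FPKM (SD, n = 3 each). The log2 difference of OLFML3 was 0.62, and 0.40 without pubertal replicate 3, and that of HPGDS was 0.49, and 1.55 with a pseudocount of 0.1. SALL1, a transcription factor of microglial identity, was at 4.36, 5.06 and 5.33 FPKM against 3.28, 4.19 and 4.05 FPKM, also without overlap (adjusted p = 0.962 from limma). SPI1, which encodes PU.1, the master factor of myeloid cells, had 1.16 ± 0.256 and 1.55 ± 0.409 FPKM (SD, n = 3 each). IRF8, its partner factor, had 15.4 ± 3.21 and 16.5 ± 1.15 FPKM (SD, n = 3 each). PTPRC, the pan-leukocyte CD45, had 11.7 ± 1.19 and 9.82 ± 1.42 FPKM, and GPR34 19.0 ± 6.03 and 19.7 ± 4.62 FPKM (SD, n = 3 each). All of these overlapped between the stages.

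In the activation list, 3 of 17 tested genes were at an unadjusted p-value under 0.05, with pubertal goats higher. GPNMB, a lysosomal glycoprotein, was at 3.23, 3.80 and 3.94 FPKM in pubertal and 2.62, 2.17 and 2.93 FPKM in prepubertal replicates 1, 2 and 3. The stages did not overlap, and the log2 difference was 0.38 (standard error 0.13, adjusted p = 0.865 from limma). TSPO, the mitochondrial protein whose ligands are used to image glial activation, was named after its values were seen. It was at 14.8, 14.8 and 19.5 FPKM in pubertal and 9.34, 7.92 and 12.1 FPKM in prepubertal replicates 1, 2 and 3, a log2 difference of 0.69 (standard error 0.17, adjusted p = 0.733 from limma). CLEC7A, a receptor for fungal glucans, also named after its values were seen, was at 7.65, 9.67 and 7.89 FPKM against 9.03, 1.28 and 2.60 FPKM, so prepubertal replicate 1 lay among the pubertal goats. Its log2 difference was 1.11, 1.71 without prepubertal replicate 1 and 0.64 without prepubertal replicate 2. SPP1, which encodes osteopontin, had 114 ± 37.6 and 97.7 ± 17.7 FPKM, and the lipase gene LPL 4.45 ± 1.90 and 3.03 ± 0.260 FPKM (SD, n = 3 each), both with overlap. The log2 difference of LPL was 0.38, and 0.12 without pubertal replicate 3. SPP1 and LPL are also expressed by cells other than microglia.

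**Figure D5:**
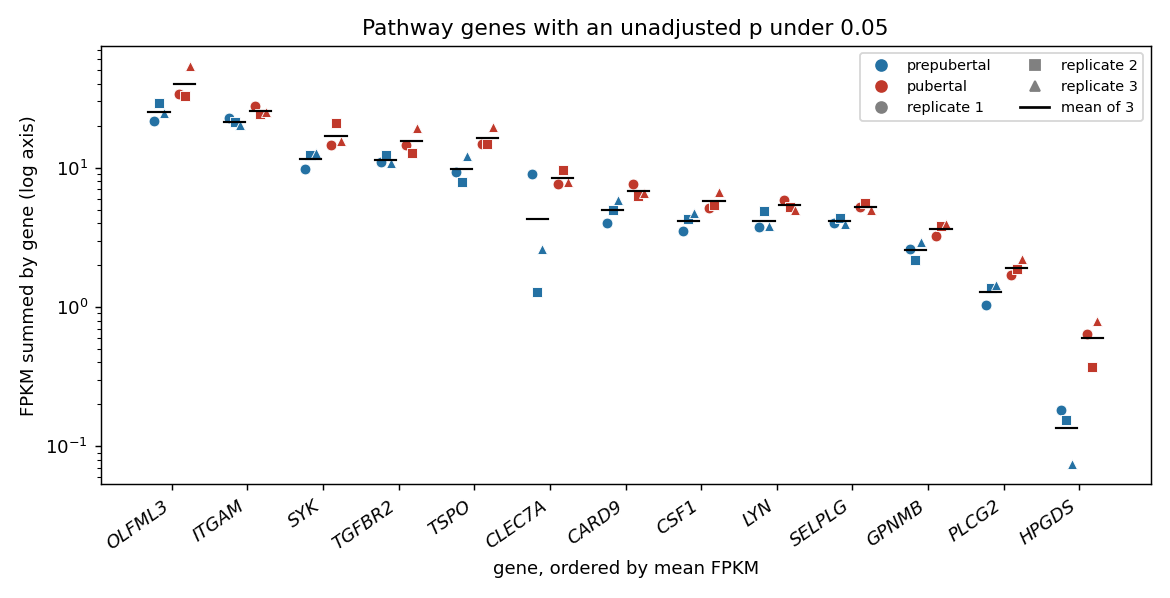
FPKM summed by gene (log axis) in each library for the 13 pathway genes with an unadjusted p-value under 0.05, with prepubertal goats in blue, pubertal goats in red and black bars for the mean of 3. CLEC7A is the 1 gene of the 13 whose stages overlap, with prepubertal replicate 1 at 9.03 FPKM.

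Markers of other cells were read beside these lists. The 7 endothelial and mural genes tested had a log2 difference above 0 in 7 of 7, with a median of 0.35. Their summed level was 130, 117 and 219 FPKM in pubertal and 88.3, 111 and 105 FPKM in prepubertal replicates 1, 2 and 3. The 219 FPKM of pubertal replicate 3 held 70.7 FPKM of ACTA2. The 10 neuron genes were below 0 in 10 of 10, with a median of -0.13, and summed to 1395 to 1764 FPKM against 1604 to 1756 FPKM. Without pubertal replicate 3, a choice made after seeing the data, 6 of the 7 endothelial and mural genes were above 0, with a median of 0.15, and 6 of the 10 neuron genes below 0, with a median of -0.087. Unadjusted p-values under 0.05 were found for 2 of 7 endothelial and mural genes (VWF and RGS5), 1 of 5 border macrophage genes (F13A1), 1 of 12 blood leukocyte genes (CD2), 1 of 8 astrocyte genes (ALDH1L1), 0 of 7 oligodendrocyte genes and 0 of 10 neuron genes. All 5 genes, named after their values were seen, were higher in pubertal goats and had no overlap between the stages. A count of 1 in lists this short was not read as a result, and CD2 averaged 0.317 FPKM. CSF3R, of the same list as CD2, had no overlap with pubertal goats lower, at 0.116 against 0.206 FPKM. Of 8 genes of border macrophages, which share many microglial genes, 5 were found and all 5 had a log2 difference above 0. That of CD14 was only 0.0089, and its mean FPKM was lower in pubertal goats, at 4.38 against 4.41. SIGLEC1 and LYVE1 averaged 0.816 and 0.664 FPKM, and only F13A1 had no overlap between the stages. The 5 genes summed to 9.54 to 12.8 FPKM in pubertal and 7.42 to 11.5 FPKM in prepubertal goats. The mannose receptor gene MRC1 was at 3.39, 2.54 and 4.42 FPKM in pubertal and 1.54, 3.07 and 2.17 FPKM in prepubertal replicates 1, 2 and 3, and LYVE1, a hyaluronan receptor gene, at 1.16, 0.628 and 0.616 against 0.553, 0.650 and 0.375 FPKM. The log2 difference of MRC1 was 0.45, and 0.30 without pubertal replicate 3. F13A1, a coagulation factor gene of border macrophages, was at 1.51, 1.61 and 2.15 FPKM in pubertal and 0.994, 1.16 and 1.26 FPKM in prepubertal replicates 1, 2 and 3, so every pubertal goat lay above the prepubertal goats (adjusted p = 0.883 from limma). CD163, MS4A7 and STAB1 had no match in the table of gene names and were not analysed here. The 12 blood leukocyte genes found summed to 10.6 to 12.5 FPKM in pubertal and 9.14 to 12.3 FPKM in prepubertal goats. The part of these cells in the values of the pathway genes was not tested.

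A neighbouring lncRNA was listed by the study within 10 kb of CX3CR1. XLOC_1257212 had 2 transcripts in the lncRNA table, both weak. TCONS_02630418, of 4704 nt, was at 0.656, 0.311 and 0.519 FPKM in pubertal and 0.274, 0.867 and 0.885 FPKM in prepubertal replicates 1, 2 and 3. Its stages overlapped, while 6.67% of the 2925 lncRNA transcripts tested had no overlap and 0.0342% passed the adjusted threshold (log2 difference -0.15, standard error 0.23, adjusted p = 0.983 from limma). The difference was -0.30 with a pseudocount of 0.1 and ran from -0.33 to -0.051 with each library left out. TCONS_02607407, of 690 nt, had values between 0.0956 and 0.669 FPKM and was listed at 0 in prepubertal replicate 1. Pearson r with CX3CR1 over the 6 libraries was 0.16 and -0.03. Beside IRF8 lay XLOC_885328, of 845 nt, with 0.504 ± 0.0920 and 0.395 ± 0.245 FPKM (SD, n = 3 each, adjusted p = 0.990 from limma), and its r with IRF8 was 0.05.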

How the data were processed

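RNA of hypothalamus from 6 goats was sequenced, and groups and replicate numbers were taken from the sample titles. Per the study's methods, the authors mapped read pairs with TopHat and built transcripts by Scripture and by Cufflinks 2.1.1. The deposited values are FPKM of each mRNA and lncRNA transcript in each library. The genome build is not given in the sources used here. A deposited table of the authors' Cuffdiff 2.1.1 comparison holds group means, fold changes, p-values and q-values, which were not used. Its pairing of transcripts with genes and its lengths, a property of the transcript with no unit of expression, were used. The deposited lncRNA sequences were not printed. No per-sample column was left out.

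FPKM was summed by gene. Gene symbols came from a RefSeq table of the ARS1.2 assembly, which matched 19083 of 20225 genes (94.4%), and which was used for names and neighbours only. Of 127 genes in the lists, 114 were found. Values of log2(FPKM + 1) were compared between stages by limma (version 3.58.1, R 4.3.3) with a two-sided moderated test and a mean-variance trend, over genes with a mean of at least 0.1 FPKM, with Benjamini-Hochberg adjustment over all genes tested and a threshold of 0.05. mRNA and lncRNA transcripts were fitted likewise, each over its own table. The fit was tested on simulated data made from these libraries. Sums, counts and plots were made in Python 3.11.15 with pandas 2.3.3, numpy 2.4.6 and matplotlib 3.10.9. No read counts of genes were held, so no count model was fitted. The paper gives total and mapped reads, but the reads behind each value were not worked out. P-values set each stage difference against the spread between 3 goats a stage, moderated by the trend over all genes.

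The named genes were the 9 members, 19 list genes chosen by role, the 5 genes with the highest Pearson r with the mean of the members, and any list gene past the threshold. Of the 19, CD163 had no match and 1 other is not reported here. Genes outside this rule, and the values of other cell types and of POMC, ACTA2, PMCH and AVP, are given where they touch a result. Members and lists were chosen with earlier results of these data known. Alternatives were a pseudocount of 0.1, no minimum or a minimum of 1 FPKM, quantile normalization, centring on the median, no trend, the replicate number as a block, the most abundant transcript only, and leaving out each library.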

Additional observations from a re-analysis of the deposited data

How the results depend on the processing

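With 3 goats a stage and no read counts, small changes cannot be resolved. No microglia gene passed the adjusted threshold under any of the alternatives run. The signs of the weakest differences moved with scaling, the pseudocount or the choice of transcript. CX3CR1 was at -0.019 on the log2 scale with each library centred on its median, AIF1 at 0.035 after quantile normalization and 0.00094 with the most abundant transcript only, CTNNB1 at -0.031 with centring and -0.087 with the most abundant transcript, and TCONS_02607407 at 0.076 with a pseudocount of 0.1. A pseudocount of 0.1 also moved SPI1 to -0.39, LYVE1 to 0.50 and TCONS_01833251 to 0.40, and the most abundant transcript moved TGFB1 to 0.42 and SELPLG to 0.19. The class comparison went from 0.015 to -0.089 when each gene had equal weight.

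The numbers shared by the stages were not taken as pairs. The deviations of same-numbered libraries correlated at -0.03, -0.11 and 0.09, and those of other pairs between -0.13 and 0.17. Not every library correlated best with its own number. With 3 goats a stage, such values cannot decide whether goats were paired. With the replicate block, 1 gene passed the adjusted threshold and 847 an unadjusted one, and of the 13 pathway genes at that unadjusted threshold LYN and SELPLG were lost, leaving 11. With quantile normalization, 462 genes were higher and 377 lower at an unadjusted p-value under 0.05.

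Leaving out each library gave 0 to 4 genes past the adjusted threshold, most without pubertal replicate 2, and 502 to 2223 at an unadjusted p-value under 0.05, the fewest without prepubertal replicate 1 and the most without pubertal replicate 1. It gave 0 to 1 microglia genes (TREM2, without pubertal replicate 1) and 7 to 14 pathway genes higher in pubertal goats. The class comparison ran from -0.02 to 0.09. The log2 differences ran from -0.062 to 0.12 in CX3CR1, -0.078 to 0.16 in TMEM119, -0.012 to 0.14 in CSF1R, -0.43 to 0.0024 in TREM2, -0.14 to 0.031 in CD68 and -0.15 to 0.10 in AIF1. They also crossed 0 in IL34 (-0.17 to 0.12), CX3CL1 (-0.00065 to 0.40), IRF8 (-0.25 to 0.038), GPR34 (-0.30 to 0.10), SPP1 (-0.071 to 0.36), PAPD5 (-0.15 to 0.067), PYROXD1 (-0.20 to 0.10), THAP1 (-0.11 to 0.040), CTNNB1 (-0.026 to 0.034), BRI3BP (-0.089 to 0.049) and TCONS_02607407 (-0.24 to 0.13). The cause of these shifts was not tested.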
